A study of Mus musculus with 16 samples.

Results

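Oligodendrocyte precursor and newly forming oligodendrocyte genes were examined in mouse brain RNA sequencing. The set was 10 genes named for their use as stage markers of this lineage, and all 10 were found among the 39179 genes of the count table: *Pdgfra*, *Cspg4*, *Olig1*, *Olig2*, *Sox10*, *Gpr17*, *Bcas1*, *Enpp6*, *Neu4* and *Itpr2*. The lowest count of any of them in any library was 60 (*Enpp6*), and all 10 passed the filter on low counts in each comparison.

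The study asked what a mutation that makes the mitochondrial ribosome misread does to the brain transcriptome at a young and an old age. It held 4 groups of 4 mice each: wild type (MRPS5 WT) at 3 months, mice homozygous for the MRPS5 V338Y knock-in at 3 months, wild type at 19 months and V338Y at 19 months. The V338Y change is carried in the germ line, hence by all cells, and the labels give no treatment. Mouse numbers below are those of the sample titles, and some recur in 2 groups, where they name different animals. The labels give the tissue as brain and the study's methods give it as cortex, whereas the extraction text of the labels speaks of muscle. The genotypes could not be checked from counts per gene, which do not show a base change.

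Oligodendrocytes are the cells that wrap axons in myelin, and they arise from precursors that persist in the adult brain. Precursors carry the receptor PDGFRα and the proteoglycan NG2 on their surface. The transcription factors Olig1, Olig2 and Sox10 are present from the precursor to the mature cell. Cells that leave the precursor state pass through a short-lived stage marked by *Gpr17*, *Bcas1*, *Enpp6*, *Neu4* and *Itpr2* before they make myelin in bulk.

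Library totals ran from 6181448 to 19601664 counts. The methods describe the mice as female, but the Y-linked transcript *Ddx3y* had 915 to 2129 counts in each of the 8 libraries of 3 months and 0 in each of the 8 libraries of 19 months. *Xist* ran the other way, with 5 to 20 counts at 3 months and 6331 to 14860 at 19 months. Age and sex therefore cannot be told apart in these libraries. The summed level of 8 cerebellum markers, in CPM (counts scaled to a common library size with TMM factors), was 609 to 1080 in wild-type mice of 3 months and only 28.7 to 34.2 and 32.5 to 39.3 in wild-type and V338Y mice of 19 months. Among V338Y mice of 3 months it reached 1799, except in mouse 14 with 59.7. Summed levels of other marker lists differed too. In wild-type mice their mean went from 264 to 1165 CPM (endothelial), 274 to 525 (microglia) and 177 to 628 (blood). Pituitary genes went from 1.81 to 88.1 CPM and neuron genes from 4457 to 3716. Striatum (574 and 569) and choroid plexus means (551 and 539) stood close in wild-type mice. In V338Y mice the choroid plexus mean was 505 CPM at 3 months and 1243 CPM at 19 months, where single mice ran from 153 to 2298 CPM. Each 19 against 3 months difference below thus carries these other differences as well, and values that use mouse 14 alone as the young library are given beside it.

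In wild-type mice, old levels exceeded young ones for 7 of the 10 genes and fell below them for 1 (edgeR quasi-likelihood test, Benjamini-Hochberg adjusted p under 0.05 over all genes tested). The background was high, since 62.8% of the 16101 genes tested were called, 31.4% higher and 31.5% lower. In V338Y mice, 7 of the 10 were higher and 0 lower, against a background of 48.8% of 16770 genes, 23.1% higher and 25.7% lower. The 10 genes had a median log2 fold change of 0.32 (wild type) and 0.45 (V338Y), where all genes tested had -0.0050 and -0.029. By another count, the mice of both ages did not overlap for 4 genes higher and 2 lower in wild type, as was so for 26.9% and 28.6% of all genes, and for 6 higher and 0 lower in V338Y mice, as for 22.2% and 21.9%. The rises were unequal. In wild-type mice, *Pdgfra*, *Cspg4*, *Bcas1* and *Itpr2* differed by 1.71- to 2.39-fold. There *Olig1*, *Olig2*, *Sox10*, *Gpr17* and *Neu4* moved by at most 0.24 on the log2 scale in either direction.

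**Figure D1:**
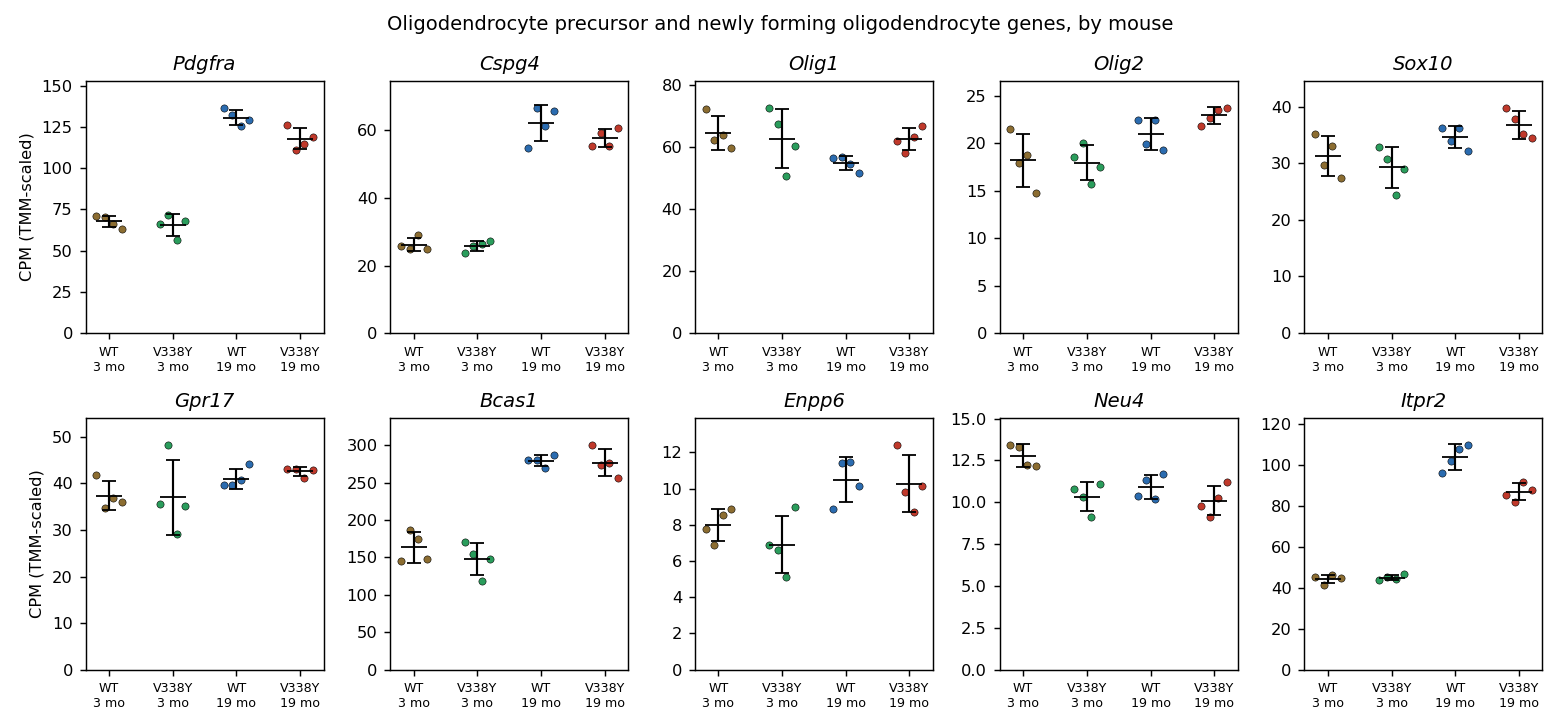
Level of each of the 10 genes in every mouse, in CPM scaled by TMM, on a linear axis from 0. Points are mice, and the bar with whiskers is the mean ± SD of 4 mice; the panels of *Pdgfra*, *Cspg4*, *Bcas1* and *Itpr2* show no overlap between ages, while those of *Gpr17* and *Enpp6* do.

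*Pdgfra* (ENSMUSG00000029231, chr5:75152292-75198215, plus strand, GRCm38) encodes the receptor for the growth factor that keeps precursors dividing. Its level in wild-type mice was 70.9, 70.3, 66.3 and 63.4 CPM at 3 months (mice 9 to 12) and 136, 132, 125 and 129 CPM at 19 months (mice 12 to 15). V338Y mice had 66.1, 71.6, 56.5 and 67.7 CPM at 3 months (mice 13 to 16) and 126, 111, 115 and 119 CPM at 19 months (mice 17 to 20). All 8 older mice lay above all 8 younger mice. The log2 fold change was 0.96 ± 0.05 (SE, n = 4 per group, adjusted p = 1.42e-16 by edgeR) in wild-type and 0.84 ± 0.07 (adjusted p = 9.48e-07) in V338Y mice.

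*Cspg4* (ENSMUSG00000032911, chr9:56865033-56899870, plus strand) encodes NG2. Wild-type mice had 25.8, 24.9, 28.9 and 25.0 CPM at 3 months and 54.9, 66.6, 61.2 and 65.8 CPM at 19 months. In V338Y mice these were 23.6, 25.9, 26.2 and 27.2 CPM, then 55.5, 59.2, 55.3 and 60.6 CPM. Again the ages did not overlap, and the log2 fold change was 1.26 ± 0.07 in wild-type (adjusted p = 9.21e-16) and 1.16 ± 0.07 in V338Y mice (adjusted p = 3.59e-08).

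Both surface markers are also made by cells around blood vessels: pericytes carry NG2, and fibroblasts of the vessel wall and meninges carry PDGFRα. Marker genes of those cells moved in the same direction. Without *Cspg4*, all 10 pericyte genes were higher at 19 months in both genotypes, and their summed level went from 232–251 to 893–1002 CPM in wild-type and from 214–243 to 839–938 CPM in V338Y mice. Without *Pdgfra*, all 11 fibroblast genes were higher too, from 120–175 to 414–503 CPM and from 149–172 to 353–437 CPM. The number of genes at 0 in all mice of a group was 0 in both lists. In whole tissue, more cells of a type and more RNA per cell cannot be told apart, and the part of vessel cells in the levels of *Pdgfra* and *Cspg4* was not tested.

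The 250 bases before the RefSeq start of *Pdgfra* (GRCm38.p6, chr5:75152001-75152250, plus strand) are printed beside those of *Itpr2* (chr6:146502224-146502473, minus strand), because both genes were higher at 19 months and lower in old V338Y than in old wild-type mice. Capitals mark E-boxes (CANNTG, the letters bound by basic helix-loop-helix factors such as Olig2) and GC boxes (GGGCGG), searched on both strands; the 2 motifs share no letters here.
*Pdgfra*: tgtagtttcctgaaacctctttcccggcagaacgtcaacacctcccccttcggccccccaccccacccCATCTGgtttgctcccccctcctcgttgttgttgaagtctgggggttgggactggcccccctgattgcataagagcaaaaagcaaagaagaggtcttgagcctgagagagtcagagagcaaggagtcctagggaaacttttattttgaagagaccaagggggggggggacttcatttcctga
*Itpr2*: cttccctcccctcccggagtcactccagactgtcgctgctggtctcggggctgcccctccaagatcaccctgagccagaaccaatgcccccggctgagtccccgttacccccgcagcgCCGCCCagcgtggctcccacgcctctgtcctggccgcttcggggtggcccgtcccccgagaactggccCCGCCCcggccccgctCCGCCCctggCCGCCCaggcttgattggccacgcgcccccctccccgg
The *Pdgfra* window held 1 E-box, 0 GC boxes and 4 CG pairs. The *Itpr2* window held 0 E-boxes, 4 GC boxes and 22 CG pairs. Of 32841 RefSeq promoter windows of this length, 66.2% held an E-box and 32.7% a GC box, and the median number of CG pairs was 6. RefSeq windows were matched for 6 of the 10 genes.

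The lineage transcription factors moved less than *Pdgfra*, *Cspg4*, *Bcas1* and *Itpr2* in both genotypes. *Olig1* (ENSMUSG00000046160, chr16:91269772-91271933, plus strand), which acts in differentiation, was the only one of the 10 genes called lower: wild-type mice had 72.3, 62.2, 64.0 and 59.8 CPM at 3 months and 56.5, 56.7, 54.6 and 51.6 CPM at 19 months, with no overlap (log2 fold change -0.21 ± 0.06, adjusted p = 0.0031). V338Y mice had 72.6, 67.6, 50.6 and 60.3 CPM and then 62.0, 58.2, 63.3 and 66.8 CPM. The older V338Y mice lay inside the spread of the younger ones (-0.01 ± 0.09, adjusted p = 0.93).

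*Olig2* (ENSMUSG00000039830, chr16:91225457-91228677, plus strand), its neighbour on the same chromosome, is required to specify the lineage. It ran from 14.7 to 21.5 CPM in young and from 19.3 to 22.5 CPM in old wild-type mice, and from 15.8 to 20.1 CPM in young and 21.8 to 23.7 CPM in old V338Y mice. In wild-type mice the ages overlapped; in V338Y mice they did not. The log2 fold change was 0.24 ± 0.10 (adjusted p = 0.030) and 0.34 ± 0.08 (adjusted p = 0.0029).

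*Sox10* (ENSMUSG00000033006, chr15:79154908-79165240, minus strand), which drives myelin genes, had 27.4–35.1 and 32.1–36.3 CPM in wild-type mice (0.17 ± 0.08, adjusted p = 0.045), and 24.5–32.9 and 34.6–39.8 CPM in V338Y mice (0.32 ± 0.08, adjusted p = 0.0063). The *Olig2* and *Sox10* calls in wild-type mice were the least firm. Both lost their call when any one of 4 mice was left out, namely mouse 10 or 12 of 3 months or mouse 12 or 14 of 19 months, with adjusted p from 0.063 to 0.186, and DESeq2 gave 0.067 and 0.087.

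Among the genes of newly forming oligodendrocytes, *Bcas1* and *Itpr2* differed most. *Bcas1* (ENSMUSG00000013523, chr2:170346991-170427845, minus strand), which marks cells starting to make myelin, had 145, 187, 175 and 147 CPM in young and 281, 280, 270 and 288 CPM in old wild-type mice. V338Y mice had 171, 154, 119 and 148 CPM, then 301, 273, 276 and 257 CPM. The ages stood clear of each other in both genotypes (0.78 ± 0.07, adjusted p = 4.77e-07, and 0.90 ± 0.09, adjusted p = 6.62e-06). With the level of myelin genes as a covariate, the wild-type difference lost its call (0.43, adjusted p = 0.30 by edgeR). That covariate did not overlap between ages in these mice, at 6.15 to 6.27 (mean log2 CPM) in young and 6.48 to 6.54 in old ones. The fit therefore cannot separate myelin level from age. In V338Y mice *Bcas1* kept its call in 17 of 17 alternative fits. The part of myelinating cells in the *Bcas1* level was not tested.

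*Itpr2* (ENSMUSG00000030287, chr6:146108299-146502223, minus strand) encodes a receptor that releases calcium from the endoplasmic reticulum, and it is also the main form of that receptor in astrocytes. It had 45.1, 41.2, 46.3 and 44.6 CPM in young wild-type and 43.7, 45.1, 44.2 and 46.9 CPM in young V338Y mice. At 19 months the values were 96.3, 102, 108 and 110 CPM in wild-type and 85.5, 82.1, 91.9 and 88.0 CPM in V338Y mice. The young mice of both genotypes lay together, and all old mice lay above them (1.24 ± 0.06, adjusted p = 4.42e-18, and 0.94 ± 0.06, adjusted p = 5.79e-08). Of 10 astrocyte markers, 10 were higher in wild-type and 9 in V338Y mice, and their summed level went from 3280–3568 to 7108–8154 CPM and from 3501–4050 to 6671–7693 CPM; their part in the *Itpr2* level was not tested.

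*Enpp6* (ENSMUSG00000038173, chr8:46986887-47096762, plus strand), a choline phosphodiesterase of newly formed oligodendrocytes, was the lowest of the 10 per length. It had 6.88–8.87 and 8.87–11.5 CPM in wild-type mice (0.40 ± 0.12, adjusted p = 0.0055), and 5.13–8.98 and 8.73–12.4 CPM in V338Y mice (0.55 ± 0.15, adjusted p = 0.011). *Neu4* (ENSMUSG00000034000, chr1:94020451-94028334, plus strand), a sialidase, did not pass in either genotype: 12.1–13.4 and 10.2–11.7 CPM in wild-type mice, where the ages did not overlap (-0.22 ± 0.10, adjusted p = 0.057), and 9.14–11.1 and 9.13–11.2 CPM in V338Y mice (-0.04 ± 0.10, adjusted p = 0.76). Without mouse 12 of 3 months or mouse 15 of 19 months it passed in wild-type mice (adjusted p = 0.048 and 0.0499).

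*Gpr17* (ENSMUSG00000052229, chromosome 18, minus strand), a receptor of committed precursors, did not pass either. Wild-type mice had 41.8, 34.8, 36.9 and 35.9 CPM at 3 months and 39.6, 39.7, 40.6 and 44.1 CPM at 19 months (0.15 ± 0.07, adjusted p = 0.060). It passed without mouse 9 of 3 months (adjusted p = 0.012) or mouse 12 of 19 months (0.049). V338Y mice had 35.6, 48.3, 29.0 and 35.1 CPM and then 43.1, 43.2, 41.1 and 42.9 CPM (0.19 ± 0.12, adjusted p = 0.21). The highest of all 16 values was that of mouse 14, the young V338Y library low in cerebellum markers, and without it the V338Y difference was called (0.35, adjusted p = 0.0014). *Gpr17* shares 188 exon bases with *Lims2* on the other strand, and the counting strand is not given in the sources used here, so reads of that stretch could belong to either gene.

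**Figure D2:**
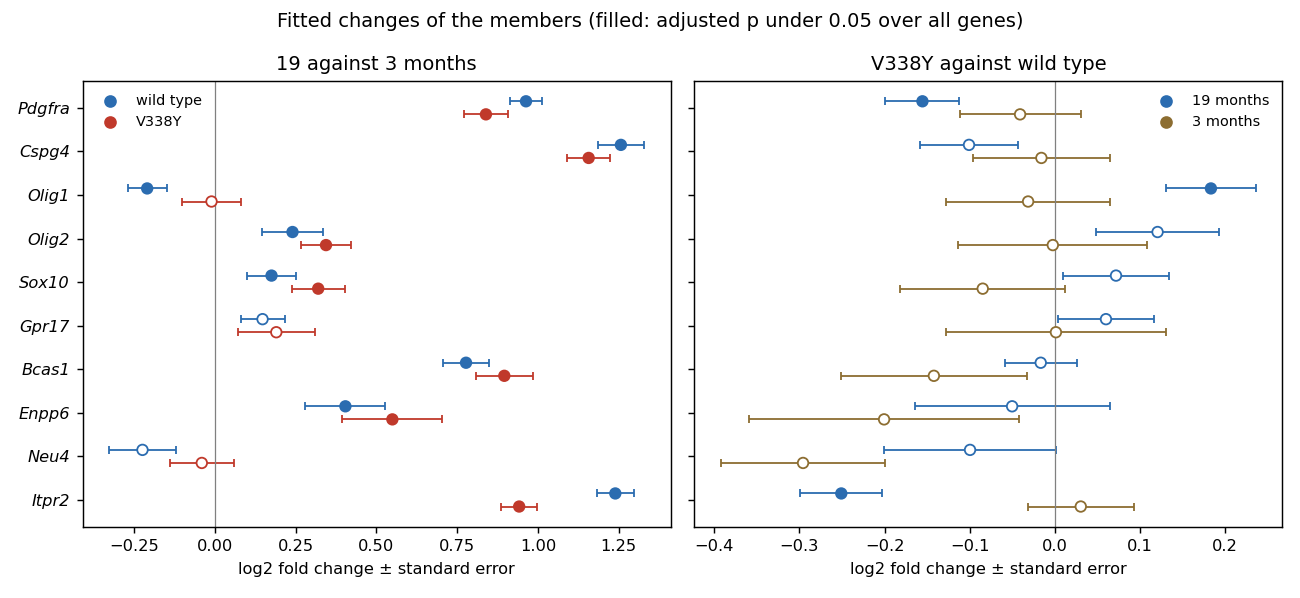
Fitted log2 fold changes (horizontal axis) of the 10 genes with their standard errors. The left panel gives 19 against 3 months in each genotype, the right panel V338Y against wild type at each age on a narrower axis; filled points have an adjusted p under 0.05, 8 and 7 of 10 on the left and 3 and 0 of 10 on the right.

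With mouse 14 as the only 3-month library, 6 of the 10 genes were called against the 4 old V338Y mice, where 45.7% of 16858 genes were. The lone library was assumed to vary like the others. *Cspg4* (1.16), *Itpr2* (0.96), *Bcas1* (0.85), *Pdgfra* (0.72), *Enpp6* (0.62) and *Sox10* (0.26) remained higher on the log2 scale, and *Olig2* did not pass (0.20, adjusted p = 0.098). *Gpr17* turned in direction (-0.18). The log2 ratio of the old V338Y mean to mouse 14 was -0.11 for *Olig1*, where mouse 14 lay above all old V338Y mice, and -0.034 for *Neu4*. The cerebellum markers of mouse 14 summed to 59.7 CPM, still above the 28.7 to 39.3 CPM of the old mice, and the part of cerebellum tissue in these differences was not tested. With the cerebellum markers as a covariate over all 8 V338Y libraries, *Olig2* (0.14, adjusted p = 0.45), *Sox10* (0.23, adjusted p = 0.27) and *Enpp6* (0.62, adjusted p = 0.13) did not pass.

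**Figure D3:**
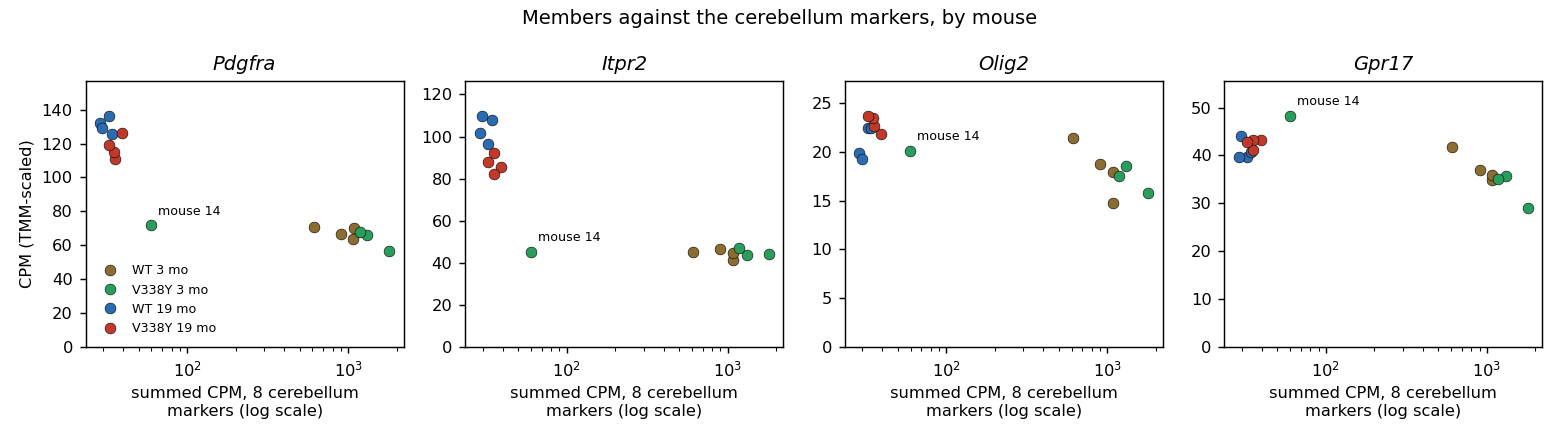
Level of *Pdgfra*, *Itpr2*, *Olig2* and *Gpr17* (CPM, linear axis from 0) against the summed level of 8 cerebellum markers (CPM, log axis) in each of 16 mice. Mouse 14, at 59.7 CPM of cerebellum markers, lies with the other young mice for *Pdgfra* (71.6 CPM) and *Itpr2* (45.1 CPM) and above all old mice for *Gpr17* (48.3 CPM).

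Relative to *Olig2* in the same library, a rough reference for the amount of lineage RNA, mean ratios of the other 9 genes differed in direction between ages. The log2 ratio of *Pdgfra* to *Olig2* was 1.90 ± 0.17 (SD, n = 4) in young and 2.63 ± 0.12 in old wild-type mice, and 1.86 ± 0.06 and 2.35 ± 0.12 in V338Y mice. That of *Itpr2* went from 1.29 ± 0.22 to 2.30 ± 0.17 and from 1.32 ± 0.15 to 1.91 ± 0.06. Ratios of *Pdgfra*, *Cspg4*, *Bcas1* and *Itpr2* were higher in old mice, and those of *Olig1* and *Neu4* lower, with no overlap in either genotype. The share of all genes whose ratio to *Olig2* did not overlap was not computed. On the CPM scale, 26.9% of all genes were higher and 28.6% lower without overlap in wild-type mice. In V338Y mice these shares were 22.2% and 21.9%. Ratios of *Sox10*, *Gpr17* and *Enpp6* overlapped between ages. Each of the non-overlapping ratios reached p = 0.0286, the smallest that a two-sided exact permutation test of 4 against 4 mice can give, and 0.0791 after adjustment over the 9 ratios of all 4 comparisons, so 0 of them passed.

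**Figure D4:**
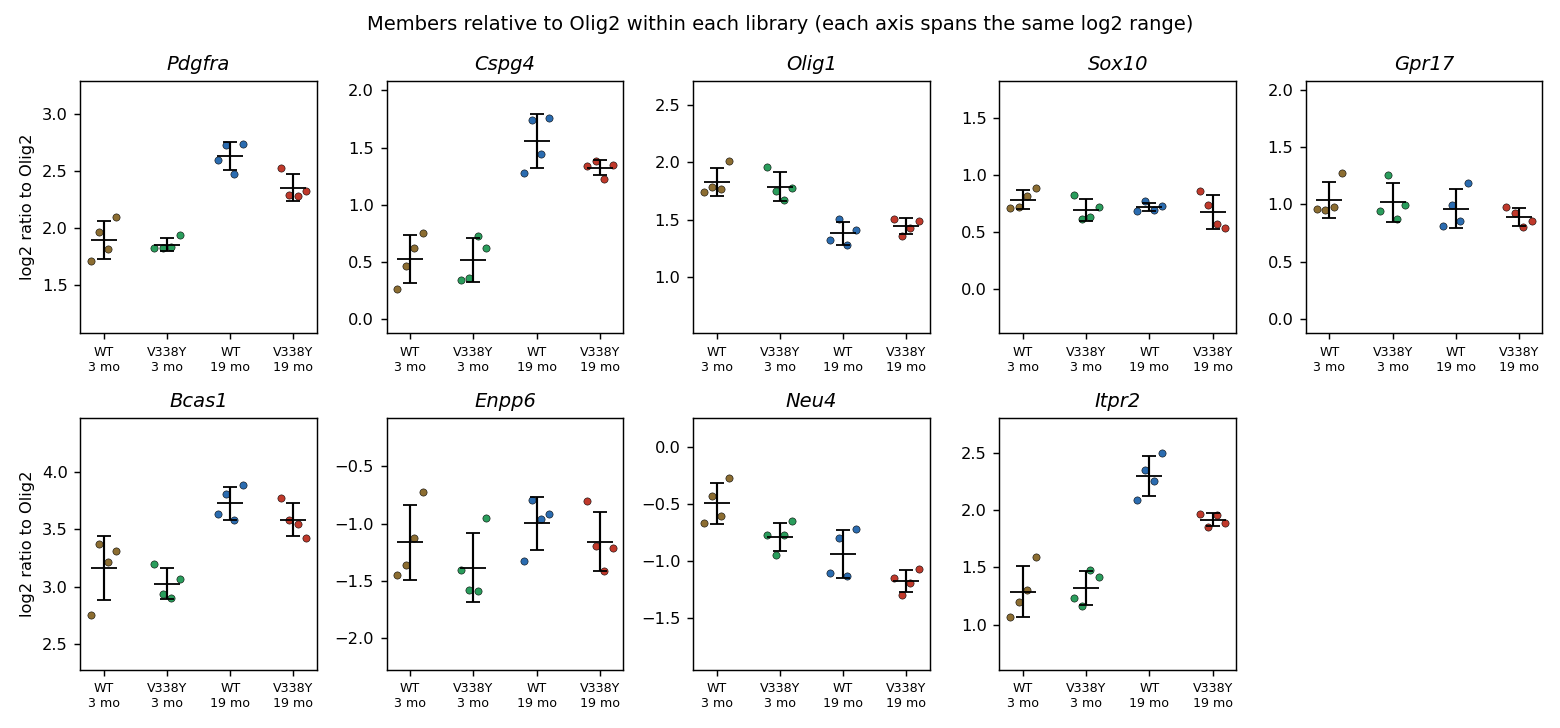
Log2 ratio of each of the other 9 genes to *Olig2* within each library, by group. Points are mice, bars are the mean ± SD of 4 mice, and each axis spans the same log2 range; *Pdgfra*, *Cspg4*, *Bcas1* and *Itpr2* lie higher and *Olig1* and *Neu4* lower at 19 months.

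Between genotypes at 19 months, 1 of the 10 genes was higher and 2 were lower in V338Y mice, where 3.12% of 16420 genes were called (1.19% higher, 1.92% lower). Separation of all mice was seen for 4.49% of genes upward and 4.83% downward. *Itpr2* was lower, with all 4 V338Y mice under all 4 wild-type mice (-0.25 ± 0.05, adjusted p = 0.0016). *Pdgfra* was lower with an overlap of the groups (-0.16 ± 0.04, adjusted p = 0.044), and *Olig1* was higher with none (0.18 ± 0.05, adjusted p = 0.0499). The other 7 genes lay between -0.10 and 0.12. *Itpr2* kept its call without any 1 mouse. In contrast, 1 gene was called without any one of wild-type mice 12, 13, 14 and 15 or V338Y mice 19 and 20, and 2 without V338Y mouse 17 or 18. *Pdgfra* and *Olig1* also lost their calls under DESeq2 (adjusted p = 0.097 and 0.118).

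Fibroblast and astrocyte markers differed between the old groups as well. Of the 11 fibroblast genes other than *Pdgfra*, 6 were lower and 1 was higher in V338Y mice, with a median log2 fold change of -0.40, and 2 of the 10 astrocyte genes were lower (median -0.10). Of the 10 pericyte genes, 0 were called higher and 0 lower (median -0.08). Lists of neighbouring tissues differed too. Pituitary genes averaged 88.1 CPM in old wild-type and 35.9 CPM in old V338Y mice, and 2 of the 3 were called lower. Blood genes averaged 628 and 433 CPM and choroid plexus genes 539 and 1243 CPM, with 0 genes called in either list. The part of these cells and tissues in the *Pdgfra*, *Itpr2* and *Olig1* differences was not tested.

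At 3 months, 0 of the 10 genes passed between genotypes (edgeR), where 0.0616% of 16241 genes did, and DESeq2 called 0 as well. Their log2 fold changes lay between -0.30 and 0.03, with standard errors from 0.06 to 0.16. One of them, *Neu4*, had an unadjusted p under 0.05 (0.0086, adjusted p = 0.93), as 5.02% of all genes did. Its level was 13.4, 13.3, 12.2 and 12.1 CPM in wild-type and 10.8, 10.3, 9.14 and 11.1 CPM in V338Y mice. The groups did not overlap, and 1.86% of all genes were lower in this way. Cerebellum markers were uneven among the young V338Y mice, from 59.7 CPM in mouse 14 to 1799 CPM. Without mouse 14, 0 of the 10 genes passed as well. Genes with an unadjusted p under 0.05 (edgeR) were then 1590 of 15989, against 815 of 16241 with it.

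The test of whether the age difference itself depended on genotype called 0 of the 10 genes with edgeR and with DESeq2, against 0.0535% of 16831 genes. *Itpr2* came closest: its age difference on the log2 scale was -0.28 ± 0.08 in V338Y relative to wild-type mice (adjusted p = 0.24 by edgeR), and it was the only one under an unadjusted 0.05, as 10.2% of all genes were. The sharper call of *Itpr2* between old groups was therefore not shown to differ from its value at 3 months. Without V338Y mouse 14 of 3 months, 0 of the 10 genes were called here too. Calls over all genes then went from 0 higher and 9 lower to 16 and 41.

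Levels per kilobase of exon placed *Bcas1* first, *Olig1* second and *Enpp6* last in all 4 groups, although *Bcas1* and *Olig1* overlapped in young V338Y mice. In wild-type mice *Bcas1* averaged 43.3 CPM per kb at 3 months and 74.0 at 19 months, *Olig1* 29.9 and 25.4, and *Enpp6* 1.25 and 1.63. In the same mice *Pdgfra* was below *Sox10* at 3 months, at 6.76 CPM per kb and overlapping with *Gpr17* and *Olig2*, and above it at 19 months, at 13.04 against 11.36. *Olig2* and *Gpr17* were neighbours that overlapped in 3 of the groups, and in old V338Y mice they stood at 9.06 and 8.19.

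Other genes of the pathway were read from lists of the same kind. Their counts stand beside the 62.8% and 48.8% of all genes called between ages in wild-type and V338Y mice. Of all genes, 31.4% were higher and 31.5% lower in wild-type, and 23.1% and 25.7% in V338Y mice. Shares of these lists take both directions together. A gene named for 1 genotype only was among the largest changes there. Whether age differences depended on genotype was tested as above, and 0 genes of these lists were called. Of 19 further precursor genes, 11 rose and 2 fell with age in wild-type mice, and 8 rose and 2 fell in V338Y mice. The shares were near those of all genes, but rises outnumbered falls, which was not so among all genes. *Ptprz1*, a receptor phosphatase of precursors and astrocytes, showed the largest rise in wild-type mice, from 144 ± 11.04 to 320 ± 19.3 CPM (SD, n = 4; log2 fold change 1.16), followed by *Xylt1*, a xylosyltransferase (0.93). *Lrrtm3*, a synaptic adhesion protein, was lower there (-0.20). *Megf11*, a cell-surface protein, fell by 1.13 on the log2 scale in wild-type and by 1.39 in V338Y mice. Its spread at 3 months was wide in V338Y mice (22.3 to 74.5 CPM). The lowest of these values was that of mouse 14, and old V338Y mice had 18.6 to 22.0 CPM. In V338Y mice *Rlbp1* (0.90) and *Scrg1* (0.80) were higher and *Nxph1*, a secreted neurexin ligand, was lower (-0.24).

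Of 19 further genes of committed precursors, 7 were higher and 4 lower in wild-type and 5 and 4 in V338Y mice. This was no larger a share than among all genes. *Bmp4*, a secreted ligand, was higher in both (1.42 in wild-type mice). *Mpzl1* was higher in wild-type (0.99) and *Lims2*, which shares exon bases with *Gpr17*, in V338Y mice (1.09). The largest fall in wild-type mice was that of *Cnksr3*, a scaffold protein, from 25.0 ± 4.55 to 8.28 ± 0.31 CPM (-1.59). *Ust*, a sulfotransferase, was lower in both genotypes (-0.66 and -0.94), and *Mycl* in V338Y mice (-0.56).

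Of 25 myelin genes, 13 were higher and 1 was lower in wild-type mice (median 0.18), and 14 and 1 in V338Y mice (median 0.28). Both directions together, this was a smaller share than among all genes in wild-type and a larger one in V338Y mice. Falls were few beside the 31.5% and 25.7% of all genes called lower. *Myrf*, the factor that turns on myelin genes, had 18.9 ± 1.99 and 47.3 ± 4.79 CPM in young and old wild-type mice (1.33) and was also higher in V338Y mice (0.93). *Aspa*, which splits N-acetylaspartate, was higher in wild-type mice (0.76), and *Hapln2*, a matrix link protein of nodes of Ranvier, in V338Y mice (0.93). *Cnp*, an enzyme of the myelin sheath, was lower at 19 months in wild-type mice (-0.18).

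Of 30 signals and regulators, 14 were higher and 5 lower in wild-type and 12 and 2 in V338Y mice. The shares were close to those of all genes, with more rises than falls. Among the higher genes were *Jag1*, a Notch ligand (1.47 and 1.27), and *Pdgfrb*, a receptor that pericytes also carry (1.58 and 1.44). *Chd7*, a chromatin remodeller (-0.98), and the transcription factor *Sox4* (-0.53) were lower in wild-type mice, and *Id2*, an inhibitor of differentiation, in V338Y mice (-0.14). Of 8 cell division genes tested, 3 and 1 were higher, and 1 and 0 lower in wild-type and V338Y mice, smaller shares than among all genes. In wild-type mice *Ccnd1*, a cyclin, was higher (0.37) and *Mcm2*, a replication factor, lower (-0.35).

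Between old genotypes, 1 of 19 precursor, 2 of 19 committed-stage and 2 of 25 myelin genes passed. Of 30 signals and regulators 0 passed, and of 7 cell division genes tested 1 did. Of all genes, 3.12% were called. *Pcdh15* was the 1 precursor gene called, lower in V338Y mice (-0.24 ± 0.06, adjusted p = 0.026). *Tns3* and *Cemip2* were the 2 committed-stage genes called, both lower (-0.22 each). Of the myelin genes, *Cnp* was higher (0.17 ± 0.04, adjusted p = 0.010). *Pcna*, a replication clamp, was lower (-0.32 ± 0.07, adjusted p = 0.0073).

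**Figure D5:**
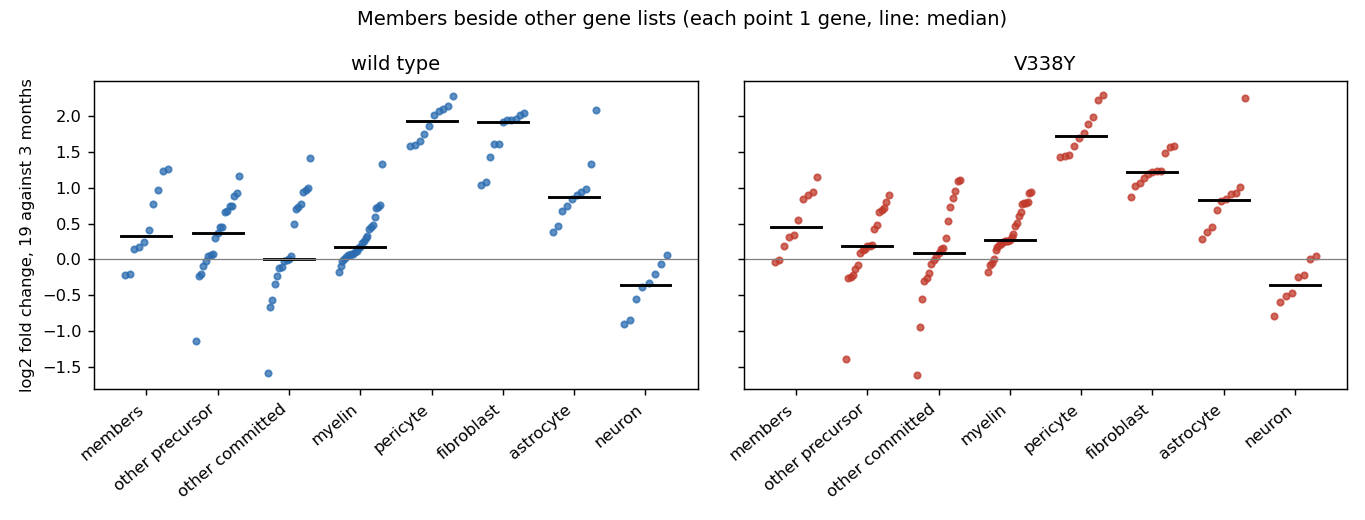
Log2 fold change of 19 against 3 months (vertical axis) for each tested gene of 8 lists in wild-type (left) and V338Y mice (right); points are genes and the line is the median of the list. *Cspg4* and *Pdgfra* are shown among the members and left out of the pericyte and fibroblast lists, whose medians are 1.94 and 1.92 in wild-type mice against 0.32 for the 10 genes.

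With group means subtracted, the genes most like each member over the 16 libraries were sought among 12853 genes by Pearson's r, as a description of libraries that share depth and tissue make-up. For *Bcas1* they were the myelin gene *Mobp* (r = 0.91), *Chchd4* (0.90) and the myelin gene *Mal* (0.89). *Sox10* lay closest to *Rassf2* (0.91), then *Leng9* (0.90) and the oligodendrocyte connexin *Gjb1* (0.90), and *Pdgfra* closest to *Qpct* (0.94). The closest gene was *Tubb2a* (0.91) for *Olig1*, *Eml2* (0.95) for *Olig2* and *St3gal1* (0.92) for *Cspg4*. It was *Gm14295* (0.89) for *Enpp6* and *Rpl18* (0.86) for *Neu4*. *Gpr17* lay closest to the protocadherins *Pcdh7* (0.96) and *Pcdh10* (0.94), values that were 0.87 and 0.84 without mouse 14. Over all 16 libraries *Itpr2* had the least close neighbours, led by *Map1b* (0.82). Without mouse 14 that value was 0.89, above those of *Gpr17* with *Pcdh7* (0.87) and *Neu4* with *Rpl18* (0.87).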

How the data were processed

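Total RNA of 16 libraries was sequenced as single-end reads from a stranded kit. The deposited table holds estimated counts per Ensembl gene, whole numbers made by the authors. The methods name RSEM and an older genome, whereas the submitters' processing notes name STAR 2.4.2a, featureCounts and GRCm38 (reads from bcl2fastq 1.8.4); this was not resolved. Values of 10000 or more all end in 0, so large counts were rounded. GENCODE M21 gave symbols for 37607 of 39179 genes.

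Counts were tested with edgeR 4.0.16 (limma 3.58.1, R 4.3.3): genes with at least 10 counts in 2 of 4 mice of a group, TMM scaling, glmQLFit on the 8 libraries compared, 16 for the difference of age effects, Benjamini-Hochberg adjustment over all genes. DESeq2 1.42.0, other scaling, other filters, covariates and left-out mice were alternatives. Depth of 6181448 to 19601664 counts sets the precision of low genes. Log2 CPM used a prior count of 2, and 0 count columns were left out. Ratios used exact permutation tests. Nothing in the labels says that the mice of a group came from separate litters, and p-values measure the spread between these samples.

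Named were all 10 members, and for likeness genes among the 3 closest to each. From each pathway list, up to 2 genes with the largest rise and 2 with the largest fall that passed without overlap of groups were named. Other marker lists are given by counts or sums, and sex markers by single genes. Members and lists were chosen with earlier results of these data known. One gene that met the naming rule is not reported here.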

Additional observations from a re-analysis of the deposited data

Results flagged for a closer look

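Of 40 sets of 4 mice (10 genes in 4 groups), 1 held a value that stood apart by Dixon's criterion, which chance meets in about 1 set in 20. *Gpr17* in old V338Y mouse 19 was 41.1 CPM, below the 42.9 to 43.2 CPM of the other 3 mice, with a gap of 0.856 of the range.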

How the results depend on the processing

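Age and sex cannot be told apart, cerebellum markers follow age except in mouse 14, and 4 mice a group limit small differences. No paired analysis was possible, because mice were killed at 3 or 19 months and the groups compared hold different animals. Number 12 recurs in wild-type mice, with 1487 *Ddx3y* counts at 3 months and 0 at 19 months. *Pdgfra*, *Cspg4* and *Itpr2* passed between ages in 15 of 16 alternatives in wild-type mice, the exception being the cerebellum covariate, and in 17 of 17 in V338Y mice.

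Members called in the wild-type age comparison were 8, but 0 with the cerebellum covariate and 3 with the myelin covariate. Calls over all 16101 genes fell too, from 5050 higher and 5065 lower to 36 and 46, and to 1233 and 1081. In V338Y mice the members called were 7, but 4 with the myelin covariate and 5 with the cerebellum covariate. Under the latter, *Olig2*, *Sox10* and *Enpp6* lost and *Gpr17* gained a call. Calls over all 16770 genes went from 3875 higher and 4306 lower to 2020 and 1296 (myelin). With the cerebellum covariate they were 2386 and 2286. The cerebellum covariate nearly coincides with age in wild-type mice, and the standard error of *Olig2* was 1.08 under it. The myelin covariate did not overlap between ages in either genotype. Between genotypes at 19 months the members called were 3, but 1 with DESeq2, 1 with all 16 libraries and 0 with the cerebellum covariate, and 1 to 2 without 1 mouse. Of all genes, 196 were called higher and 316 lower in the main fit and 147 and 240 with DESeq2. With all 16 libraries they were 25 and 91, and with the cerebellum covariate 31 and 43. Without 1 mouse they ran from 96 to 232 higher and from 188 to 379 lower. *Itpr2* passed there in 15 of 16 alternatives, *Pdgfra* in 5 and *Olig1* in 6.

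Log2 fold changes that changed sign follow. In the wild-type age comparison they were, with the cerebellum covariate, *Olig2* -2.44, *Sox10* -1.99, *Gpr17* -1.47 and *Enpp6* -0.22, and with the myelin covariate *Olig2* -0.66 and *Sox10* -0.42. In the V338Y age comparison *Olig1* was 0.0052 with RLE factors, 0.0042 with 10 counts in every library and 0.0054 with DESeq2. There *Gpr17* was -0.32 with the cerebellum covariate (adjusted p = 0.0445), -0.13 with the myelin covariate and -0.18 with mouse 14 as the only young library, which was chosen after seeing the data. *Sox10* was -0.10 and *Enpp6* -0.096 with the myelin covariate. Between genotypes at 19 months *Bcas1* was 0.0070 with library size only. At 3 months *Olig2* was 0.0023 without a filter, 0.0024 with 10 counts in every library and 0.064 with the myelin covariate, under which *Pdgfra* was 0.0079 and *Olig1* 0.049. *Gpr17* was -0.0027 with DESeq2, -0.00033 with all libraries and -0.093 with the cerebellum covariate. With the mean of *Olig1*, *Olig2* and *Sox10* as denominator, the ratio difference of *Gpr17* was 0.092 between wild-type ages, and at 3 months those of *Pdgfra*, *Cspg4* and *Gpr17* were 0.00096, 0.030 and 0.019. The cause was not tested.

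Without 1 mouse at a time, the V338Y age difference ran from -0.093 to 0.071 for *Olig1* and from -0.096 to 0.011 for *Neu4*. Between genotypes at 19 months *Enpp6* ran from -0.14 to 0.024 and *Bcas1* from -0.057 to 0.019. At 3 months the ranges were -0.10 to 0.050 for *Olig1*, -0.092 to 0.076 for *Olig2*, -0.15 to 0.093 for *Gpr17*, -0.0047 to 0.054 for *Itpr2*, -0.042 to 0.039 for *Cspg4* and -0.081 to 0.014 for *Pdgfra*. The difference of age effects ran from -0.040 to 0.22 for *Gpr17*. Library size alone was the scaling of the wild-type age comparison under which *Olig2* (0.15) and *Sox10* (0.083) lost and *Neu4* (-0.32) gained its call.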
